A study of Salmo salar with 13 samples.

Results

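The saccus vasculosus (SV) transcriptomes described here come from Atlantic salmon that had spent 24 h in seawater (SW) after 1 of 2 photoperiod histories. All libraries labelled SPLLSW (SPLL SW, 4 libraries) and SPholdSW (SP-hold SW, 3 libraries) were used, 7 of the 13 libraries of the series. SPLL SW fish had 8 weeks of short photoperiod and then 8 weeks of constant light, and SP-hold SW fish had 16 weeks of short photoperiod. The other libraries, from fish sampled in freshwater (FW) before the transfer, are SPLL FW (2 libraries) and SP-hold FW (4 libraries). All fish were juveniles (parr at the start) of 1 commercial strain, and their sex was not determined. Both SW groups spent the 24 h under constant light. For SP-hold fish the transfer therefore changed salt and light together, and these cannot be told apart. The study worked with duplicate tanks but the labels tie no library to a tank, and it left out 3 libraries for low read numbers. The p-values measure only the spread between these libraries, which may share tanks.

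The SV is a vascular sac on the floor of the fish hypothalamus, lined by coronet cells that bear globular cilia, by supporting cells and by neurons that contact the cerebrospinal fluid. It has been discussed as a sensor of season in salmonids. During smoltification, salmon parr prepare in freshwater for life in the sea, and a winter of short days followed by long days or constant light is the usual trigger. The comparison of SPLL SW with SP-hold SW asks how the SV differs after a seawater challenge between fish with and without that light stimulus.

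Each library was described by estimated reads per transcript, given below as CPM, the reads of a transcript scaled to a common library size with TMM factors. The 7 SW libraries held 21925327 to 26502552 assigned reads, and 46383 of 146780 transcripts passed the filter on low counts. Only 54154 transcripts had a read in SPLL SW replicate 3, while the other 12 libraries ranged from 62901 to 70176. Libraries are written below as group and replicate number (SPLL SW 3). Transcripts of the SV were abundant in both groups. The 10 tested transcripts of coronet cell and SV markers (ependymins, parvalbumin, nkx2.1) held 7.57, 9.38, 9.06 and 11% of TPM in SPLL SW and 9.1, 6.34 and 8.39% in SP-hold SW, and the groups overlapped. In CPM, which is not scaled by transcript length, the same sums did not overlap, at 105042, 98781, 166874 and 120208 in SPLL SW and 67377, 89406 and 79727 in SP-hold SW (two-sided exact permutation test, p = 0.0571, the smallest that 4 against 3 libraries allow). Of the 10, 1 was called lower, an nkx2.1 transcript (ENSSSAT00000186120) with 65.3, 75.3, 84.7 and 62.8 CPM in SPLL SW, against 107, 102 and 107 CPM in SP-hold SW (log2 fold change -0.55, SE 0.11, FDR 0.0362), and its call was lost in 9 of the 13 fits that left out 1 library (FDR up to 0.126). The 15 transcripts of erythrocyte markers, all of them hemoglobin chains, held 9.58, 5.88, 11.4 and 4.59% of TPM in SPLL SW and 2.73, 3.6 and 4% in SP-hold SW. The SPLL SW libraries all lay above the SP-hold SW libraries in TPM (two-sided exact permutation test, p = 0.0571). In CPM the erythrocyte sums overlapped, at 40775, 19753, 72557 and 15373 in SPLL SW and 7854, 17358 and 12786 in SP-hold SW (exact permutation test, p = 0.114). Of the 15, 0 were called in edgeR, 12 had an unadjusted p under 0.05 (9.78% of all tested transcripts did so in the higher and 8.73% in the lower direction) and DESeq2 called 10. Their median log2 fold change of 1.54 was 0.91 without SPLL SW 3. The gene gh1 of pituitary growth hormone, the only pituitary marker tested, had 33.6, 277, 150.2 and 6.54 CPM in SPLL SW, against 10.3, 7.45 and 5.06 CPM in SP-hold SW. So 3 of 4 SPLL SW libraries exceeded all SP-hold SW libraries, but gh1 was not called in edgeR. In FW it also varied between libraries, with 1.3 and 106 CPM in SPLL FW and 8.76, 11.5, 4.93 and 2.96 CPM in SP-hold FW. As tissue pieces were sequenced, more cells of a type and more RNA per cell cannot be told apart.

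**Figure D1:**
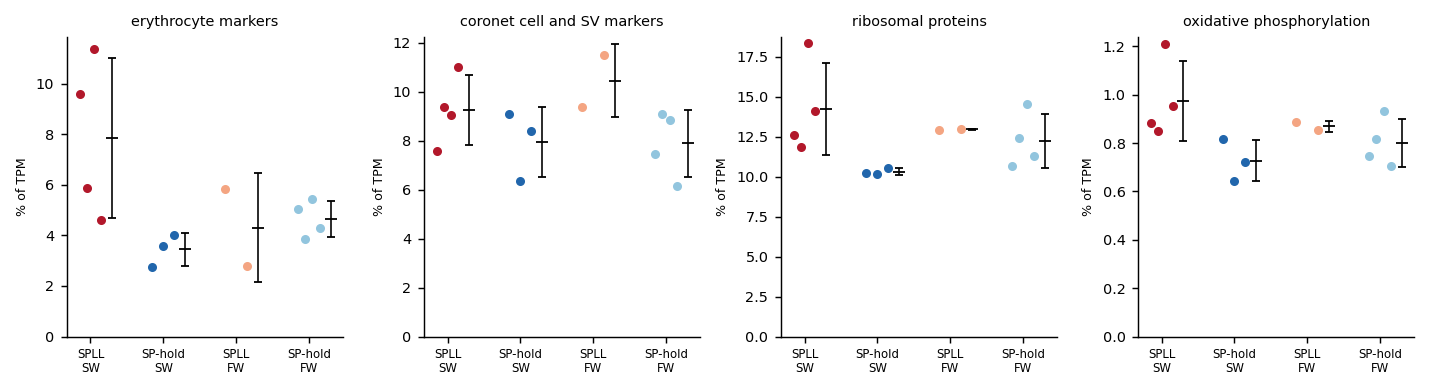
Summed abundance of 4 gene lists in each library, in percent of all TPM, reads scaled by transcript length and library size. Points are libraries, and bars give the mean with its SD for each group. For erythrocyte markers the SPLL SW libraries lie between 4.59 and 11.4% and the SP-hold SW libraries between 2.73 and 4.00%.

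Photoperiod history was associated with differences in 1411 transcripts after 24 h in SW, 3.04% of those tested, at a false discovery rate (FDR) of 0.05 in edgeR. Of these, 657 were higher in SPLL SW (1.42%) and 754 were lower (1.63%). The median log2 fold change was 0.89 among the higher and -1.09 among the lower transcripts, against -0.03 over all tested transcripts, and 683 of the 1411 differed by at least 1 on the log2 scale. The libraries of the 2 SW groups did not overlap in 1409 of the 1411, against 23% of all tested transcripts. For a called transcript, a lack of overlap therefore adds nothing to the call. The number of calls rests on single libraries. It was 138 without SP-hold SW 1, 251 without SP-hold SW 3, 282 without SPLL SW 1, 526 without SPLL SW 4, 824 without SP-hold SW 2, 555 or 636 without SP-hold FW 2 or 4, and 672 or 683 without SPLL FW 1 or 2. DESeq2 called 5483 transcripts, and edgeR called 109 in a fit of the 7 SW libraries alone.

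Of the tested transcripts 1292 have a name, nearly all from the study's tables, and these are not an even sample. A table of abundant transcripts lists 1020 of them (named by abundance), of which 96 were higher and 21 lower in SPLL SW. Their median log2 fold change was 0.41, with a lower quartile of 0.09, so this whole set leaned higher. Lists named mostly by abundance are to be read beside these values. Another 265 have a name only because the study had picked them in a test of the 4 groups on these same libraries, and 57 of these were higher and 156 lower (80.4%). Counts for such transcripts are not independent evidence of a direction, and the 2 sources are separated below for most lists. The remaining 45091 transcripts without a name gave 504 higher and 577 lower. The strongest of them were ENSSSAT00000084361 and ENSSSAT00000125418, each with reads in all SPLL SW libraries and none in SP-hold SW. In the other direction ENSSSAT00000173586 and ENSSSAT00000021410 had reads in SP-hold SW only, out of the 7 SW libraries.

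Among transcripts lower in SPLL SW, proteins that attach or remove ubiquitin, the tag that marks proteins for breakdown, included the lowest p-value of all named ones. HUWE1, a very large ubiquitin ligase (ENSSSAT00000106697; chromosome 13, 42960892 to 43053745 on Ssal_v3.1), had 48, 54.6, 49.4 and 55.3 CPM in SPLL SW, against 95, 90.7 and 89.3 CPM in SP-hold SW. The groups did not overlap, and each was tight (log2 fold change -0.82, SE 0.07, FDR 0.00163). In freshwater HUWE1 had 58.9 and 55.4 CPM in SPLL FW and 73.3, 69.6, 68.6 and 68 CPM in SP-hold FW, between the 2 SW groups. The gene zswim8, a ubiquitin ligase receptor known for the turnover of microRNAs (ENSSSAT00000030612; chromosome 1, 60405555 to 60452800), had 22.6, 27.8, 22.7 and 20.9 CPM in SPLL SW, against 73.2, 57 and 58.6 CPM in SP-hold SW (log2 fold change -1.42, SE 0.13, FDR 0.00224). USP34, which removes ubiquitin, had 24.8, 29.7, 23.2 and 26.8 CPM in SPLL SW, against 57.1, 49.6 and 57.9 CPM in SP-hold SW (log2 fold change -1.07, SE 0.12, FDR 0.00661). All SPLL SW libraries lay well under all SP-hold SW libraries for both. The gene spata2, an adaptor of a deubiquitinase, had 11.3, 12.9, 11.2 and 10.9 CPM in SPLL SW, against 22.1, 22.1 and 21.4 CPM in SP-hold SW (log2 fold change -0.92, SE 0.09, FDR 0.00408). Of the ubiquitin ligases and proteases, 1 of 21 tested transcripts were higher and 10 lower, with a median log2 fold change of -0.50. Without the transcripts picked by the study the list gave 1 higher and 0 lower of 8, with a median of 0.26, opposite in sign to the whole list. The count lower was 5 without SP-hold SW 1 and 4 in the fit of the 7 SW libraries alone.

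Regulators of chromatin were the list with the most members lower in SPLL SW. KMT2E, of a family of histone methyltransferases (ENSSSAT00000005295; chromosome 17, 63813484 to 63850008), had 12.1, 17.7, 14 and 16.2 CPM in SPLL SW, against 61.7, 44.3 and 49.3 CPM in SP-hold SW. No SPLL SW library reached the lowest SP-hold SW library (log2 fold change -1.79, SE 0.16, FDR 0.00203). Cic, the repressor capicua, had 25.7, 38.5, 26 and 29 CPM in SPLL SW, against 124, 81.1 and 97.2 CPM in SP-hold SW (log2 fold change -1.75, SE 0.23, FDR 0.0104). EP300, a histone acetyltransferase that serves many transcription factors (chromosome 1, 88155726 to 88179122), had 11, 13.8, 14.1 and 15.1 CPM in SPLL SW, against 35.5, 27.1 and 35.2 CPM in SP-hold SW (log2 fold change -1.27, SE 0.16, FDR 0.00993). All 4 SPLL SW libraries were again low for both genes. The gene gse1b had 9.87, 13.4, 13.1 and 13 CPM in SPLL SW, against 29.5, 21.7 and 23.7 CPM in SP-hold SW (log2 fold change -1.02, SE 0.14, FDR 0.0106). In the chromatin list 3 of 32 tested transcripts were higher and 19 lower, with a median log2 fold change of -0.87. However, 25 of the 32 were picked by the study. The others gave 0 higher and 1 lower of 7, with a median of 0.26, opposite in sign to the whole list. The count lower was 5 without SP-hold SW 1, 9 without SPLL SW 1 or SP-hold SW 3 and 12 without SPLL SW 4. It was 2 in the fit of the 7 SW libraries alone.

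**Figure D2:**
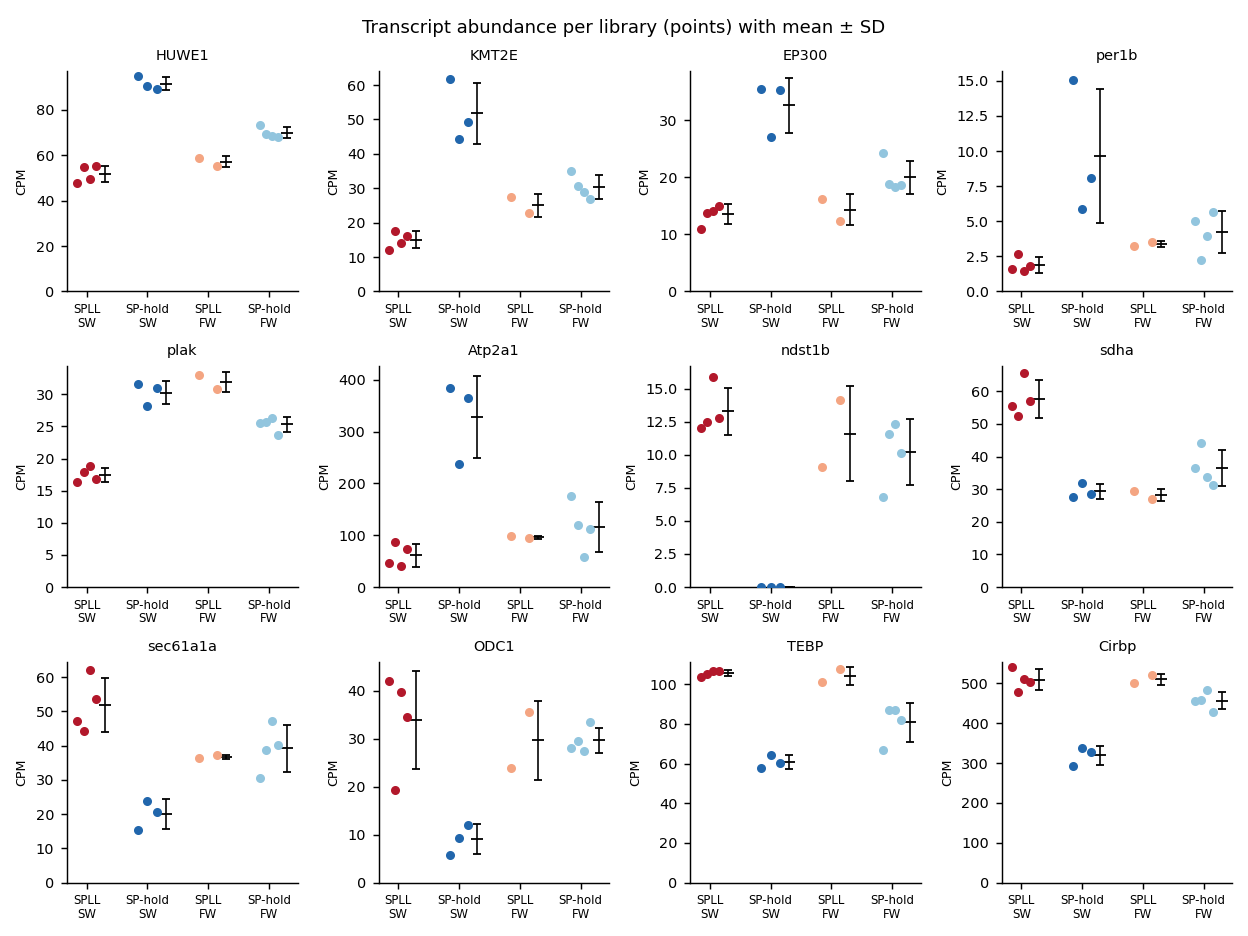
Abundance of 12 transcripts in each library, in CPM. Points are libraries, and bars give the mean with its SD for each group. HUWE1, KMT2E, EP300, per1b, plak and Atp2a1 are lower in every SPLL SW library than in any SP-hold SW library, and the other 6 are higher.

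Factors of mRNA decay and silencing, which shorten the life of messenger RNA or block its translation, had the lowest median of these lists. The gene ubap2b, of a family of RNA granule proteins (ENSSSAT00000173266; chromosome 24, 29306139 to 29335332), had 11, 12.9, 12.3 and 12.6 CPM in SPLL SW, against 32.9, 25.2 and 29.7 CPM in SP-hold SW (log2 fold change -1.26, SE 0.12, FDR 0.00262). HELZ, an RNA helicase, had 3.91, 7.13, 5.97 and 5.96 CPM in SPLL SW, against 26.9, 18.2 and 23 CPM in SP-hold SW (log2 fold change -1.98, SE 0.24, FDR 0.00922). The SPLL SW libraries of HELZ were all under 8 CPM. The gene gigyf2, which represses translation, had 15.9, 16.2, 16 and 16.5 CPM in SPLL SW, against 29.6, 26.2 and 29.6 CPM in SP-hold SW (log2 fold change -0.82, SE 0.11, FDR 0.0103), and the 4 SPLL SW libraries differed by less than 1 CPM. For mRNA decay and silencing, 1 of 20 tested transcripts were higher and 16 lower, with a median log2 fold change of -1.17. Here 17 of 20 were picked by the study, and the other 3 had a median of -0.21. The count lower was 4 without SP-hold SW 1, 10 without SP-hold SW 3 and 3 in the fit of the 7 SW libraries alone.

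RNA-binding and splicing proteins were called in both directions. ZC3H4, which limits transcription outside genes, was lower for 2 transcripts on different chromosomes. The one on chromosome 9 had 8.55, 9.88, 8.55 and 9.34 CPM in SPLL SW, against 37.4, 24.1 and 24.9 CPM in SP-hold SW (log2 fold change -1.66, SE 0.19, FDR 0.00686), and the one on chromosome 20 had 11, 14.4, 10.4 and 9.67 CPM in SPLL SW, against 39.4, 32.9 and 30.8 CPM in SP-hold SW (log2 fold change -1.60, SE 0.19, FDR 0.0088). The gene khsrp, whose protein binds AU-rich messages, had 26.8, 35.8, 25.1 and 32.2 CPM in SPLL SW, against 68.9, 57.6 and 62.4 CPM in SP-hold SW (log2 fold change -1.07, SE 0.13, FDR 0.00743). Higher in SPLL SW was Cirbp, the cold-inducible RNA-binding protein (ENSSSAT00000106426; chromosome 10, 20681072 to 20687836), with 542, 479.8, 512 and 505 CPM in SPLL SW, against 293, 337 and 327 CPM in SP-hold SW (log2 fold change 0.68, SE 0.09, FDR 0.00984). Its FW libraries, 500.4 and 520.2 CPM in SPLL FW and 457, 458, 483 and 429 CPM in SP-hold FW, all lay above the SP-hold SW libraries. The zinc finger protein gene zc3hf was also higher, with 37.9, 40.3, 46.7 and 39.4 CPM in SPLL SW, against 21.2, 25.3 and 21.9 CPM in SP-hold SW (log2 fold change 0.85, SE 0.11, FDR 0.00984). Of the splicing and RNA-binding list, 17 of 84 tested transcripts were higher and 13 lower, with a median log2 fold change of 0.13. Without the transcripts picked by the study the list gave 12 higher and 2 lower of 64. In the fit of the 7 SW libraries alone it gave 0 higher and 2 lower of the 84. The count higher was 4 without SP-hold SW 1, 5 without SP-hold SW 3, 8 without SPLL SW 1, 9 without SP-hold FW 2, 10 without SP-hold FW 4 and 11 without SPLL FW 1 or 2 or SPLL SW 4, and the count lower was 7 without SP-hold SW 1 and 8 without SPLL SW 1 or SP-hold SW 3.

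A closer look at cirbpb, named after its values were seen, showed 2 called transcripts in opposite directions out of 6 tested. The short one (ENSSSAT00000153729, 472 bases) had 579, 649, 528 and 663 CPM in SPLL SW, against 402, 432 and 342 CPM in SP-hold SW (log2 fold change 0.63, SE 0.13, FDR 0.0363). The longer one (ENSSSAT00000214541, 1034 bases) had 168, 239, 143 and 187 CPM in SPLL SW, against 289.6, 338 and 325 CPM in SP-hold SW (log2 fold change -0.78, SE 0.16, FDR 0.0361). Both lie on chromosome 14, and shared reads could be split between them. The cirbpb transcripts not called had log2 fold changes of 0.02, -0.12, 0.32 and 0.25. The last of these (ENSSSAT00000201989, FDR 0.446) belongs to the same gene as the called ones. With 1 library left out, calls ended for the short transcript of cirbpb (without SPLL SW 1, 2 or 4, SP-hold FW 2 or 4 or SP-hold SW 1 or 3, FDR up to 0.124) and the longer one (without SPLL FW 1 or 2, SPLL SW 1 or 4, SP-hold FW 2 or 4 or SP-hold SW 1, 2 or 3, FDR up to 0.104). Of 205 names with at least 2 tested transcripts, 23 had 2 or more called, and in 22 of these the called transcripts pointed the same way. Transcripts of 1 gene share reads and are not independent. Of other genes named here, further transcripts were not called for Cirbp (4, with log2 fold changes of 0.06, 0.14, 0.41 and 0.44) and RTN1 (rtn1, 0.49). The same held for chmp2a (0.18), rbp4 (0.63 for both), rpl39 (0.87) and nkx2.1 (-0.10).

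Of the clock genes, 2 of 12 tested transcripts were lower in SPLL SW. The clock repressor gene per1b (ENSSSAT00000006008; chromosome 7, 7963421 to 7980123) had 1.59, 2.68, 1.45 and 1.81 CPM in SPLL SW, against 15, 5.87 and 8.08 CPM in SP-hold SW. The SP-hold SW libraries were spread, with replicate 1 highest, but did not overlap SPLL SW (log2 fold change -2.36, SE 0.41, FDR 0.0206). BHLHE40, another clock repressor (ENSSSAT00000121554; chromosome 12, 63210066 to 63213264), had 71.7, 90.3, 74.9 and 68.3 CPM in SPLL SW, against 134, 121 and 134 CPM in SP-hold SW (log2 fold change -0.77, SE 0.11, FDR 0.0109). In FW it had 73 and 85.7 CPM in SPLL FW and 82.7, 80.3, 75.4 and 87.5 CPM in SP-hold FW, close to SPLL SW. In the circadian clock list 0 of 12 tested transcripts were higher and 2 lower, with a median log2 fold change of -0.46, and 9 of the 12 were picked by the study. The early response gene Nr4a1 had 5.87, 8.11, 5.92 and 5.35 CPM in SPLL SW, against 14, 16 and 14.8 CPM in SP-hold SW (log2 fold change -1.24, SE 0.20, FDR 0.0149), and srebf2, which drives cholesterol synthesis genes, had 33.9, 38.7, 34.7 and 39.4 CPM in SPLL SW, against 63, 50 and 66.9 CPM in SP-hold SW (log2 fold change -0.71, SE 0.11, FDR 0.0148). In the transcription factor gene meis2b (ENSSSAT00000139843; chromosome 15, 49201459 to 49219534) SPLL SW was close to 0. It had 0.227, 0.717, 0 and 0.494 CPM in SPLL SW, against 142, 48.3 and 45.2 CPM in SP-hold SW (log2 fold change -7.69, SE 1.06, FDR 0.0109), and in FW 60.5 and 18.4 CPM in SPLL FW and 51.1, 33, 6.18 and 14.9 CPM in SP-hold FW. Single libraries ended the calls on per1b (without SPLL SW 1 or 4 or SP-hold SW 1 or 3, FDR up to 0.0964), Nr4a1 (without SPLL SW 1 or SP-hold SW 1 or 3, FDR up to 0.0606) and srebf2 (without SP-hold SW 1 or 3, FDR up to 0.0742).

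Single genes of cell contacts and the extracellular matrix were among those with low p-values, named for these and not as a list. The connective tissue markers, with 0 of 10 called in edgeR, 6 at an unadjusted p under 0.05 and 3 called in DESeq2, had a median log2 fold change of 0.29 (0.14 without SPLL SW 3 or SP-hold SW 1, 0.16 without SPLL SW 2), and the list of proteoglycans and heparan sulfate had 1 higher and 2 lower of 6. The gene plak, for the junction protein plakoglobin (ENSSSAT00000090532; chromosome 2, 56686919 to 56717414), had 16.3, 17.9, 18.8 and 16.8 CPM in SPLL SW, against 31.5, 28.2 and 31 CPM in SP-hold SW (log2 fold change -0.79, SE 0.08, FDR 0.00545). The groups were far apart, and the FW libraries, 33.1 and 30.8 CPM in SPLL FW and 25.5, 25.8, 26.3 and 23.7 CPM in SP-hold FW, lay above every SPLL SW library. The gene sema6d, a semaphorin of axon guidance, had 8.41, 10.8, 10.7 and 9.42 CPM in SPLL SW, against 28.8, 22.1 and 25 CPM in SP-hold SW (log2 fold change -1.36, SE 0.15, FDR 0.00634), and npnta, the matrix protein nephronectin, had 4.23, 4.68, 4.95 and 4.07 CPM in SPLL SW, against 14.7, 11.1 and 12.6 CPM in SP-hold SW (log2 fold change -1.52, SE 0.17, FDR 0.00661). Both were low in all 4 SPLL SW libraries. Ncan, the brain proteoglycan neurocan, had 92.8, 167, 132 and 120.5 CPM in SPLL SW, against 329.8, 249.7 and 258 CPM in SP-hold SW (log2 fold change -1.12, SE 0.18, FDR 0.0164). FGFR2, a growth factor receptor, had 7.5, 18.4, 17.1 and 15 CPM in SPLL SW, against 52.3, 50.3 and 50.3 CPM in SP-hold SW (log2 fold change -1.81, SE 0.27, FDR 0.0144). Fits with 1 library less lost Ncan (without SP-hold SW 1, FDR up to 0.0777) and FGFR2 (without SP-hold SW 1, FDR up to 0.0584).

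Of the calcium handling transcripts 18 of 26 were above 0, but most of those called were lower in SPLL SW. The list is mostly named by abundance, and transcripts so named leaned higher as a set. At an unadjusted p under 0.05 in edgeR, 16 of the 26 were higher and 5 lower (9.78 and 8.73% of all tested transcripts). Atp2a1, a calcium pump of the endoplasmic reticulum best known from fast muscle (ENSSSAT00000119943; chromosome 24, 24922974 to 24952489), had 45.5, 87.1, 39.9 and 73 CPM in SPLL SW, against 383.5, 237 and 364 CPM in SP-hold SW (log2 fold change -2.42, SE 0.37, FDR 0.0147). Another Atp2a1 transcript of the same gene, ENSSSAT00000120142, was not called (log2 fold change -0.17, SE 0.13, FDR 0.58). The related gene atp2a2, the pump of most tissues, had 203, 246, 193 and 239 CPM in SPLL SW, against 338, 317 and 306 CPM in SP-hold SW (log2 fold change -0.54, SE 0.10, FDR 0.0221). No SPLL SW library reached the SP-hold SW range in atp2a2 or in the called Atp2a1 transcript. Some muscle markers moved the same way, with 92.5, 111, 161 and 90.8 CPM in SPLL SW, against 228, 242 and 201 CPM in SP-hold SW for acta1b (log2 fold change -0.98, SE 0.18, FDR 0.0274) and 73.8, 94.1, 60.8 and 75.5 CPM in SPLL SW, against 139.8, 120.0 and 127 CPM in SP-hold SW for pygmb (log2 fold change -0.76, SE 0.14, FDR 0.0282). Of the 4 muscle marker transcripts 2 were called lower and 0 higher. Of the 2 not called, 1 lay above 0, at a log2 fold change of 0.55. The part of muscle in the Atp2a1 difference was not tested. Mprip, which binds myosin phosphatase, had 63.3, 74.9, 48.9 and 65.9 CPM in SPLL SW, against 415.6, 218 and 252 CPM in SP-hold SW in transcript ENSSSAT00000100289 (log2 fold change -2.22, SE 0.29, FDR 0.0104), while its transcript ENSSSAT00000100263 was not called (log2 fold change -0.24, SE 0.13, FDR 0.385). Of the calcium handling list, 1 of 26 tested transcripts were higher and 4 lower, with a median log2 fold change of 0.40. Without the transcripts picked by the study it gave 1 higher and 1 lower of 22, with a median of 0.45. All 1020 transcripts named by abundance had a median of 0.41 and a lower quartile of 0.09. The median of the whole calcium list was 0.16 with a trend on transcript length removed. The count lower was 0 without SP-hold SW 1, 1 without SP-hold SW 3 and 2 without SPLL SW 1. Leaving out 1 library ended the calls on Atp2a1 (without SP-hold SW 1, FDR up to 0.0636), atp2a2 (without SPLL SW 1 or SP-hold SW 1 or 3, FDR up to 0.0988), acta1b (without SPLL SW 1 or 4 or SP-hold SW 1, 2 or 3, FDR up to 0.103) and pygmb (without SPLL SW 1 or 4 or SP-hold SW 1 or 3, FDR up to 0.118).

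Among ion transporters the kinase gene WNK1, a regulator of chloride cotransporters, had 1.68, 1.58, 1.18 and 1.36 CPM in SPLL SW, against 7.01, 6.44 and 5.3 CPM in SP-hold SW (log2 fold change -2.10, SE 0.34, FDR 0.0172). KCNH4, a potassium channel, had 17.6, 26.9, 19.6 and 23.4 CPM in SPLL SW, against 67.1, 43.4 and 58.3 CPM in SP-hold SW (log2 fold change -1.36, SE 0.23, FDR 0.018). The zinc transporter gene slc39a6 had 67.7, 78.3, 57.1 and 77.2 CPM in SPLL SW, against 119, 109 and 109.7 CPM in SP-hold SW (log2 fold change -0.68, SE 0.10, FDR 0.0147). All SPLL SW libraries were under all SP-hold SW libraries for these 3 genes. In the other direction slc22a18, an organic cation carrier, had 41.4, 43.5, 39.9 and 45.4 CPM in SPLL SW, against 22.4, 24.8 and 27.5 CPM in SP-hold SW (log2 fold change 0.77, SE 0.11, FDR 0.013). For ion and water transport 1 of 17 tested transcripts were higher and 5 lower, with a median log2 fold change of 0.01, and without the transcripts picked by the study the list gave 0 higher and 0 lower of 11. The count lower was 0 without SP-hold SW 1 and 2 without SPLL SW 1 or SP-hold SW 3. With 1 library left out, calls ended for WNK1 (without SP-hold SW 1, FDR up to 0.0766), KCNH4 (without SPLL SW 1 or SP-hold SW 1 or 3, FDR up to 0.0869), slc39a6 (without SP-hold SW 1, FDR up to 0.069) and slc22a18 (without SP-hold SW 1, FDR up to 0.0636).

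Neuron markers went both ways. The synaptic vesicle gene syp had 2.5, 3.39, 2.31 and 2.1 CPM in SPLL SW, against 13, 7.85 and 8.62 CPM in SP-hold SW (log2 fold change -1.93, SE 0.29, FDR 0.0144), and DNER, a neuronal Notch ligand, had 17.2, 18, 15.1 and 20.6 CPM in SPLL SW, against 31.2, 27.5 and 33.3 CPM in SP-hold SW (log2 fold change -0.79, SE 0.12, FDR 0.0149). RTN1, a reticulon of neurons, was higher, with 82.5, 100.5, 98.7 and 99.8 CPM in SPLL SW, against 37.5, 45.9 and 58.2 CPM in SP-hold SW (log2 fold change 1.02, SE 0.19, FDR 0.0282). The groups did not overlap in these 3 genes. In this list 2 of 11 tested transcripts were higher and 4 lower, with a median log2 fold change of -0.51. The count lower was 0 without SP-hold SW 1, 1 without SP-hold SW 3 and 2 without SPLL SW 1 or SP-hold FW 2, and the count higher was 0 without SPLL SW 1 or 4 or SP-hold SW 1 or 2 and 1 without SPLL FW 1 or 2, SPLL SW 3, SP-hold FW 2 or 4 or SP-hold SW 3. The 4 lower members all owe their name to the study's pick, and the 2 higher ones do not. Without the transcripts picked by the study, the 6 left had a median of 0.29, opposite in sign to the whole list. Single libraries ended the calls on syp (without SP-hold SW 1, FDR up to 0.0647), DNER (without SP-hold SW 1 or 3, FDR up to 0.0706) and RTN1 (without SPLL SW 1 or 4 or SP-hold SW 1 or 2, FDR up to 0.122).

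Among transcripts higher in SPLL SW, some had no read at all in SP-hold SW. Of 204 tested transcripts with no read in the 3 SP-hold SW libraries, 51 were called, and of 81 with none in the 4 SPLL SW libraries, 20 were called. Over all tested transcripts 3.04% were called. Both sets were chosen by zeros in the compared libraries and passed the count filter through the others. Their high share of calls is therefore no evidence, and sets with 3 and 4 libraries at 0 cannot be compared. The gene ndst1b, an enzyme that modifies heparan sulfate (ENSSSAT00000003087; chromosome 4, 37373857 to 37487215), had 264, 332, 296 and 311 reads in SPLL SW, against 0, 0 and 0 reads in SP-hold SW. This transcript was at least 345-fold higher in SPLL SW, with the SP-hold SW group set at a floor of 3 reads over the group (FDR 0.000145). In FW it was present in every library, with 9.07 and 14.1 CPM in SPLL FW and 6.78, 11.6, 12.4 and 10.1 CPM in SP-hold FW. TFB2M, a factor of mitochondrial transcription (chromosome 1, 17640727 to 17663315), had 557, 594, 150 and 581 reads in SPLL SW, against 0, 0 and 0 in SP-hold SW, at least 517-fold more (FDR 0.00634), and was also present in all 6 FW libraries. The calls on ndst1b and TFB2M held when any 1 library was left out. For each gene these values are of 1 transcript, and unnamed transcripts of the same gene were not examined. Whether shared reads went to other transcripts was not tested.

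The transcript of cited4a, a transcriptional coactivator (chromosome 27, 19804493 to 19878090), did not follow the groups. It had 9981, 9415, 6012 and 10277 reads in SPLL SW, against 0, 0 and 0 in SP-hold SW, but also 0 and 0 in SPLL FW and 0, 3369, 4462 and 2230 in SP-hold FW. It was at least 10081-fold higher in SPLL SW than in SP-hold SW (FDR 0.0422), and the call was lost in 12 of the 13 fits that left out 1 library (FDR up to 0.142). Exactly 10 tested transcripts shared this split of 7 libraries with reads and 6 without, and 6 of them were called. The opposite split, with reads in 6 libraries and none in 7, cannot pass the filter on median CPM, so the 2 splits cannot be compared. The split of cited4a was noticed after the values were seen.

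Some histone transcripts were higher in SPLL SW. The gene h1-10, for a linker histone that binds DNA between nucleosomes, had 96.2, 60.2, 122 and 101 CPM in SPLL SW, against 29, 33.5 and 36.6 CPM in SP-hold SW (log2 fold change 1.52, SE 0.23, FDR 0.0147), and h2az2b, a variant of histone H2A, had 76, 63.2, 123 and 77.2 CPM in SPLL SW, against 32.4, 36 and 26.4 CPM in SP-hold SW (log2 fold change 1.42, SE 0.22, FDR 0.0148). The SPLL SW libraries all lay above the SP-hold SW libraries for both. In the histone list 15 of the 16 owe their name to abundance (3 higher and 0 lower of 15, with a median of 0.20). The 1020 transcripts so named gave 96 higher and 21 lower, with a median of 0.41. The whole histone list of 16 tested transcripts gave 4 higher and 0 lower, with a median log2 fold change of 0.29. With a trend on transcript length removed, the histone median was 0.11, with 4 higher and 1 lower. It was 0.03 with SPLL SW 3 also left out. The count higher was 1 without SP-hold SW 1 and 2 without SP-hold SW 3. Fits with 1 library less lost h1-10 (without SP-hold SW 1, FDR up to 0.0777) and h2az2b (without SP-hold SW 1 or 3, FDR up to 0.0717).

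Of the machinery that brings proteins into the endoplasmic reticulum (ER) and folds them there, 9 of 43 transcripts were higher in SPLL SW. The channel subunit gene sec61a1a (ENSSSAT00000194932; chromosome 12, 65542111 to 65549703) had 47.3, 44.2, 62.1 and 53.5 CPM in SPLL SW, against 15.2, 23.8 and 20.7 CPM in SP-hold SW (log2 fold change 1.38, SE 0.19, FDR 0.0109), and the subunit SC61G had 92, 78.6, 162 and 84.4 CPM in SPLL SW, against 29.9, 43.8 and 33.9 CPM in SP-hold SW (log2 fold change 1.54, SE 0.26, FDR 0.018). SPLL SW 3 was highest for both. The ER stress factor gene manf had 42.3, 38.8, 50 and 41 CPM in SPLL SW, against 21, 28.8 and 25.7 CPM in SP-hold SW (log2 fold change 0.77, SE 0.12, FDR 0.015). TMEDA, a cargo receptor between ER and Golgi, had 39.6, 41.5, 40.1 and 39.8 CPM in SPLL SW, against 22.4, 25.5 and 24.2 CPM in SP-hold SW, with the SPLL SW libraries within 2 CPM of each other (log2 fold change 0.74, SE 0.12, FDR 0.018). In this list 40 of the 43 were named by abundance (6 higher and 0 lower of 40), with a median of 0.46. All 1020 transcripts so named gave 96 higher and 21 lower, with a median of 0.41. The whole list of 43 tested transcripts gave 9 higher and 0 lower, with a median log2 fold change of 0.54. That median was 0.36 with a trend on transcript length removed and 0.31 with SPLL SW 3 also left out. The count higher was 1 without SP-hold SW 1 or 3, 3 without SPLL SW 1, 4 without SP-hold FW 2 and 5 without SP-hold FW 4 or SP-hold SW 2. Leaving out 1 library ended the calls on SC61G (without SP-hold SW 1 or 3, FDR up to 0.0972), manf (without SP-hold SW 1 or 3, FDR up to 0.0606) and TMEDA (without SPLL SW 1 or SP-hold SW 1 or 3, FDR up to 0.1).

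Vesicle transport and folding in the cytosol followed the same direction for most called members. COPZ1, a coat protein of Golgi vesicles, had 16.6, 17.5, 23.8 and 14.6 CPM in SPLL SW, against 6.03, 7.8 and 7.74 CPM in SP-hold SW (log2 fold change 1.33, SE 0.21, FDR 0.0147), and chmp2a, which acts in membrane scission, had 61.9, 58.7, 65.9 and 59.4 CPM in SPLL SW, against 35.8, 43.6 and 40.7 CPM in SP-hold SW (log2 fold change 0.62, SE 0.09, FDR 0.0147). Against this, RAB14, a small GTPase of endosomes, was lower, with 48.5, 52.5, 46.2 and 48.5 CPM in SPLL SW, against 75.8, 67.3 and 68.9 CPM in SP-hold SW (log2 fold change -0.53, SE 0.08, FDR 0.0145). Vesicle transcripts named by abundance gave 6 higher and 1 lower of 16, beside 96 higher and 21 lower of all 1020 so named. Of the whole vesicle list 7 of 19 tested transcripts were higher and 2 lower, with a median log2 fold change of 0.39 (0.24 without SPLL SW 3). The count higher was 0 without SP-hold SW 1, 1 without SP-hold SW 3 and 4 without SPLL SW 1 or 4, SP-hold FW 2 or SP-hold SW 2. It was also 0 in the fit of the 7 SW libraries alone. TEBP, the HSP90 co-chaperone p23 that is also a prostaglandin E synthase (ENSSSAT00000110946; chromosome 13, 25395719 to 25411323), had 104, 105, 107 and 107 CPM in SPLL SW, against 57.7, 64.6 and 60.3 CPM in SP-hold SW (log2 fold change 0.79, SE 0.10, FDR 0.0088). The hsp90ab1 transcript ENSSSAT00000056740, for a cytosolic HSP90 chaperone, had 305, 218, 446 and 293 CPM in SPLL SW, against 113, 142 and 149.6 CPM in SP-hold SW (log2 fold change 1.23, SE 0.21, FDR 0.0217), and a second transcript of the gene, ENSSSAT00000057324, was not called and had the opposite sign (log2 fold change -0.27, SE 0.11, FDR 0.194). The gene pfdn5, a prefoldin, had 44.5, 45.5, 63.5 and 40.9 CPM in SPLL SW, against 20.6, 26.9 and 25.7 CPM in SP-hold SW (log2 fold change 0.99, SE 0.16, FDR 0.015). Of the cytosolic chaperones 7 of 22 tested transcripts were higher and 0 lower, with a median log2 fold change of 0.08 (between 0.01 and 0.24 with 1 library left out), or 5 higher and 0 lower of 20 for those named by abundance. That count higher was 1 without SP-hold SW 1, 2 without SP-hold SW 3 and 3 without SPLL SW 1. With 1 library left out, calls ended for COPZ1 (without SP-hold SW 1, FDR up to 0.0742), chmp2a (without SP-hold SW 1 or 3, FDR up to 0.0659), RAB14 (without SP-hold SW 1, FDR up to 0.0691), hsp90ab1 (without SPLL SW 1 or SP-hold SW 1 or 3, FDR up to 0.104) and pfdn5 (without SP-hold SW 1 or 3, FDR up to 0.076).

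**Figure D3:**
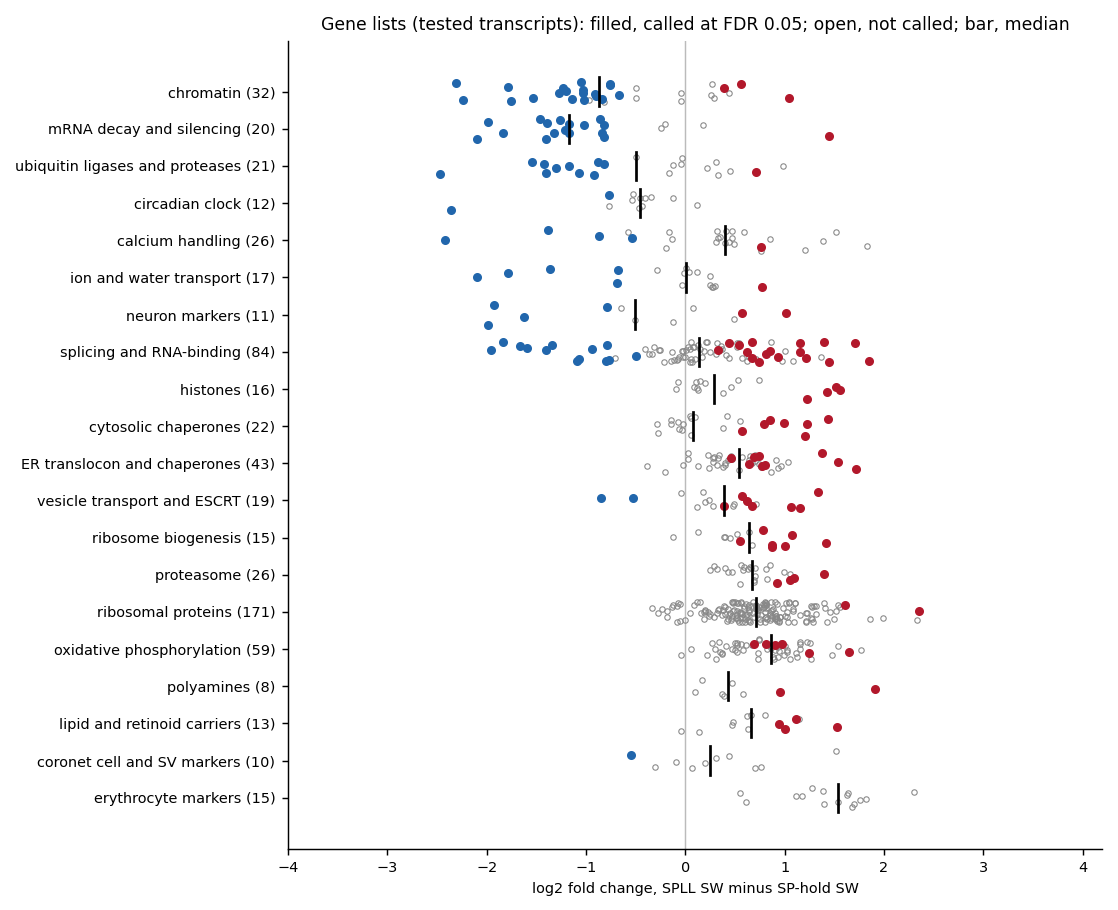
Log2 fold change between SPLL SW and SP-hold SW for the tested transcripts of 20 gene lists, with the number tested in parentheses. Filled points passed an FDR of 0.05 (red higher and blue lower in SPLL SW), open points did not, and bars are medians. The mRNA decay list has the lowest median (-1.17) and the erythrocyte markers the highest (1.54, or 0.91 without SPLL SW 3), with 0 of 15 erythrocyte markers called in edgeR.

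Among genes of ribosome assembly 7 of 15 were higher in SPLL SW. The genes rrp36 and mak16, which act in the processing of ribosomal RNA, were tight within groups. The first had 23.6, 23.1, 22.8 and 22.2 CPM in SPLL SW, against 12.5, 13.5 and 11.7 CPM in SP-hold SW (log2 fold change 0.87, SE 0.11, FDR 0.0104), and mak16 had 20.3, 20.3, 23.3 and 20.1 CPM in SPLL SW, against 8.15, 12.3 and 9.47 CPM in SP-hold SW (log2 fold change 1.07, SE 0.15, FDR 0.0119). Ribosome assembly transcripts named by abundance gave 2 higher and 0 lower of 9. The 1020 transcripts so named gave 96 higher and 21 lower, with a median of 0.41. In the whole assembly list 7 of 15 tested transcripts were higher and 0 lower, with a median log2 fold change of 0.64. The count higher was 2 without SPLL SW 1 or SP-hold SW 1 or 3, 4 without SPLL SW 4 and 0 in the fit of the 7 SW libraries alone. For the proteins of the ribosome itself 2 of 171 tested transcripts were higher and 0 lower, with a median log2 fold change of 0.71, and 158 of the 171 were above 0. Of all tested transcripts 1.42% were higher. Abundance gave 170 of the 171 their name, and transcripts so named leaned higher as a set. The ribosomal protein median was 0.27 without SPLL SW 3, and 0.04 when a trend on transcript length was also removed. The called rpl39 had 218, 104, 528 and 185 CPM in SPLL SW, against 24.3, 67.1 and 60.6 CPM in SP-hold SW (log2 fold change 2.35, SE 0.56, FDR 0.0499), with replicate 3 highest in SPLL SW. Its call was lost in 12 of the 13 fits that left out 1 library (FDR up to 0.179).

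Transcripts of mitochondrial respiration were above 0 in 58 of 59 cases, and 6 were called. The subunit gene sdha of succinate dehydrogenase (ENSSSAT00000228005; chromosome 2, 6282026 to 6292242) had 55.4, 52.5, 65.7 and 57.1 CPM in SPLL SW, against 27.5, 31.8 and 28.5 CPM in SP-hold SW (log2 fold change 0.98, SE 0.13, FDR 0.0104), and ndufa1 of complex I had 42.6, 29.2, 76.9 and 35.8 CPM in SPLL SW, against 14, 16.3 and 13.8 CPM in SP-hold SW (log2 fold change 1.65, SE 0.30, FDR 0.0249). The SPLL SW range of ndufa1 was wide, with replicate 3 highest, and did not overlap SP-hold SW. For oxidative phosphorylation 6 of 59 tested transcripts were higher and 0 lower, with a median log2 fold change of 0.87, and those named by abundance gave 5 higher and 0 lower of 58. All transcripts named by abundance gave 96 higher and 21 lower of 1020, with a median of 0.41. The oxidative phosphorylation median was 0.48 without SPLL SW 3 and 0.22 when the length trend was also removed. In the proteasome list 4 of 26 tested transcripts were higher and 0 lower, with a median log2 fold change of 0.67, and those named by abundance gave 3 higher and 0 lower of 25. The proteasome median was 0.47 without SPLL SW 3, 0.40 with the length trend removed and 0.29 with both. The gene psmd9, for a factor of proteasome assembly, had 63.8, 53.2, 98.8 and 55.3 CPM in SPLL SW, against 25.5, 36.9 and 33 CPM in SP-hold SW (log2 fold change 1.09, SE 0.23, FDR 0.039). The proteasome count was 0 without SPLL FW 1 or 2, SPLL SW 1, SP-hold FW 2 or SP-hold SW 1 or 3, 1 without SPLL SW 4, SP-hold FW 4 or SP-hold SW 2 and 2 without SPLL SW 2 or SP-hold FW 1 or 3, and the oxidative phosphorylation count was 1 without SPLL SW 1 or SP-hold SW 1 or 3 and 2 without SPLL FW 1 or 2, SPLL SW 4, SP-hold FW 2 or 4 or SP-hold SW 2. Single libraries ended the calls on ndufa1 (without SPLL SW 1 or SP-hold SW 1, 2 or 3, FDR up to 0.112) and psmd9 (without SPLL FW 1 or 2, SPLL SW 1 or 4, SP-hold FW 2 or 4 or SP-hold SW 1, 2 or 3, FDR up to 0.159).

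Ornithine decarboxylase, the first enzyme of polyamine synthesis, was higher for transcripts of 2 genes. ODC1 on chromosome 1 (ENSSSAT00000057382) had 42.1, 19.3, 39.6 and 34.6 CPM in SPLL SW, against 5.76, 9.29 and 12 CPM in SP-hold SW (log2 fold change 1.91, SE 0.31, FDR 0.0167), and odc1 on chromosome 9 (ENSSSAT00000015103) had 40.2, 32, 32.9 and 35.5 CPM in SPLL SW, against 19.9, 16.2 and 18.2 CPM in SP-hold SW (log2 fold change 0.96, SE 0.15, FDR 0.0161). For both, SP-hold SW lay below all FW libraries, which were 23.9 and 35.5 CPM in SPLL FW and 28.1, 29.6, 27.4 and 33.4 CPM in SP-hold FW for ODC1. Lipid and retinoid carriers named by abundance gave 3 higher and 0 lower of 12, beside 96 higher and 21 lower of all 1020 so named. Of the whole carrier list, 4 of 13 tested transcripts were higher and 0 lower, with a median log2 fold change of 0.66. That count higher was 0 without SP-hold SW 1, 2 or 3 and 2 without SPLL FW 1 or 2, SPLL SW 1, 3 or 4 or SP-hold FW 2 or 4. The fatty acid binding protein genes fabp7b, of radial glia, and fabp4 had 344, 338, 518 and 366 CPM in SPLL SW, against 190.4, 208 and 213 CPM in SP-hold SW (log2 fold change 0.94, SE 0.17, FDR 0.0225) and 18.2, 16.4, 35.7 and 21.3 CPM in SPLL SW, against 9.36, 6.79 and 7.64 CPM in SP-hold SW (log2 fold change 1.53, SE 0.26, FDR 0.0199). The retinol carrier gene rbp4 had 323, 332, 549 and 499 CPM in SPLL SW, against 188, 241 and 209 CPM in SP-hold SW (log2 fold change 1.00, SE 0.22, FDR 0.0431). Fits with 1 library less lost ODC1 (without SP-hold SW 1, FDR up to 0.0706), odc1 (without SP-hold SW 1 or 3, FDR up to 0.0681), fabp7b (without SP-hold SW 1, 2 or 3, FDR up to 0.107), fabp4 (without SP-hold SW 1, 2 or 3, FDR up to 0.08) and rbp4 (without SPLL FW 1 or 2, SPLL SW 1, 3 or 4, SP-hold FW 2 or 4 or SP-hold SW 1, 2 or 3, FDR up to 0.175).

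Several genes of interest were not called. The most abundant ependymin transcript (ENSSSAT00000082883), a secreted protein of the SV, had 67162, 60814, 99466 and 73964 CPM in SPLL SW, against 33635, 54548 and 50449.8 CPM in SP-hold SW (log2 fold change 0.71, SE 0.45, FDR 0.479), and all SPLL SW libraries were above SP-hold SW without passing. The 2 parvalbumin (prvt) transcripts had 4777, 3037, 8906 and 4092 CPM in SPLL SW, against 1221, 2292 and 1936 CPM in SP-hold SW (log2 fold change 1.52, SE 0.37, FDR 0.0552) and 3585, 2805, 5680.4 and 2897 CPM in SPLL SW, against 1944, 2613 and 2044 CPM in SP-hold SW (log2 fold change 0.77, SE 0.26, FDR 0.135). Of the 7 tested transcripts of opsins and deiodinases 0 were called in edgeR, 1 had an unadjusted p under 0.05 and DESeq2 called 1. The deiodinase gene dio2, whose enzyme activates thyroid hormone, had 0.182, 0.867, 1.13 and 1.03 CPM in SPLL SW, against 2.63, 1.01 and 0.916 CPM in SP-hold SW (log2 fold change -0.92, SE 0.62, FDR 0.517), and Dio3a2, of an inactivating deiodinase, had 3.27, 2.68, 6.94 and 3.33 CPM in SPLL SW, against 3.41, 2.85 and 3.39 CPM in SP-hold SW (log2 fold change 0.33, SE 0.43, FDR 0.799). The opsin gene rgrb (ENSSSAT00000200844) had 47.1, 48.6, 43.8 and 49.9 CPM in SPLL SW, against 39.2, 41.8 and 46.5 CPM in SP-hold SW (log2 fold change 0.16, SE 0.09, FDR 0.391). The dopamine signalling gene ppp1r1b had 81.2, 78.1, 72.2 and 103 CPM in SPLL SW, against 92.5, 92.4 and 97.8 CPM in SP-hold SW (log2 fold change -0.17, SE 0.11, FDR 0.5). TSC22D3, a cortisol target, had 114, 106, 133 and 116 CPM in SPLL SW, against 71.6, 115 and 103 CPM in SP-hold SW (log2 fold change 0.28, SE 0.17, FDR 0.443). A missed threshold does not show that these were alike.

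The same photoperiod contrast in freshwater called 42 transcripts (0.0906%), 5 higher (0.0108%) and 37 lower (0.0798%) in SPLL FW, with 2 and 4 libraries. It was 274 or 177 without SPLL FW 1 or 2, and 142 without SPLL SW 3. Of the 1411 transcripts called in SW, 7 were also called in FW. The FW libraries are not among those compared in SW, but all 13 libraries shared 1 estimate of the spread. They therefore bear on which transcripts were called in SW. Of the 1411, 66.1% had the same sign in FW, against 55.0% of all tested transcripts, with no test of that share. For 76.6% of the higher and 60.7% of the lower transcripts, the mean of the 6 FW libraries was nearer to SPLL SW than to SP-hold SW, against 55.6% of all tested transcripts.

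The difference between the photoperiod contrasts in SW and in FW (the interaction) passed for 105 transcripts (0.226%), 68 higher (0.147%) and 37 lower (0.0798%), of which 66 were among the 1411. The count was 299 or 252 without SPLL FW 1 or 2, 292 without SPLL SW 3, 159 without SPLL SW 2, 62 without SPLL SW 1 and 66 without SP-hold FW 2. KMT2E (interaction -1.51, SE 0.24, FDR 0.0415), zswim8 (-1.34, SE 0.20, FDR 0.0297) and plak (-1.13, SE 0.13, FDR 0.00723) had a lower photoperiod contrast in SW than in FW, and sdha (1.35, SE 0.19, FDR 0.0286) a higher one. JUP, a second plakoglobin gene named after its values were seen, had 2.5, 3.54, 3.98 and 4.11 CPM in SPLL SW, against 9.21, 9.25 and 10 CPM in SP-hold SW (log2 fold change -1.42, SE 0.19, FDR 0.0104), and in FW 9.57 and 9.35 CPM in SPLL FW and 6.52, 7.5, 7.43 and 7.39 CPM in SP-hold FW (interaction -1.81, SE 0.28, FDR 0.0387). Also seen afterwards, 2 RNA-binding genes were called in opposite directions in the 2 waters. The splicing factor gene hnrnpa1a (ENSSSAT00000210623) had 144, 139, 128 and 158 CPM in SPLL SW, against 77.5, 96.3 and 93.6 CPM in SP-hold SW (log2 fold change 0.67, SE 0.11, FDR 0.015), and in FW 63.3 and 60.1 CPM in SPLL FW and 122, 124, 131 and 108 CPM in SP-hold FW (log2 fold change in FW -0.97, SE 0.12, FDR 0.0229). The gene tardbpb, for the TDP-43 protein (ENSSSAT00000119476), had 124, 119.9, 107 and 121 CPM in SPLL SW, against 87.3, 81.6 and 92.8 CPM in SP-hold SW (log2 fold change 0.44, SE 0.08, FDR 0.0245), and in FW 72.9 and 72.5 CPM in SPLL FW and 119, 118, 112 and 106 CPM in SP-hold FW (log2 fold change in FW -0.64, SE 0.09, FDR 0.0342). For both, SPLL was the lower group in FW and the higher group in SW. Calls in the SW contrast were lost for hnrnpa1a (without SP-hold SW 1 or 3, FDR up to 0.0776) and tardbpb (without SPLL SW 1 or 4 or SP-hold SW 1, 2 or 3, FDR up to 0.109). When 1 library was left out, the FW call was lost for hnrnpa1a in 2 of 13 (FDR up to 0.0773) fits and for tardbpb in 10 of 13 (FDR up to 0.114) fits.

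Of 4 tested transcripts of Fkbp5, a co-chaperone of the cortisol receptor, 0 were called in SW and 1 had a called interaction. That transcript, ENSSSAT00000150909, had 11, 11, 8.82 and 8.76 CPM in SPLL SW, against 35.9, 14.5 and 17.4 CPM in SP-hold SW (log2 fold change -1.19, SE 0.38, FDR 0.12), and 5.36 and 5.27 CPM in SPLL FW and 0.959, 0.517, 0.383 and 1.16 CPM in SP-hold FW in FW (log2 fold change in FW 2.81, SE 0.44, FDR 0.0558). Neither single contrast passed, and the log2 fold change in SW was -0.70 without SP-hold SW 1. Its SPLL libraries lay below all SP-hold libraries in SW and above them in FW (interaction -4.002, SE 0.58, FDR 0.0292). The interaction was -2.06 (FDR 0.245) for ENSSSAT00000150897 and -0.61 (FDR 0.797) for ENSSSAT00000242092, both of the same gene, and -1.70 (FDR 0.192) for fkbp5 on chromosome 22. Interaction calls were lost for KMT2E (without SPLL FW 1, SPLL SW 1 or 4, SP-hold FW 2, 3 or 4 or SP-hold SW 1 or 3, FDR up to 0.0863), zswim8 (without SPLL FW 2, SPLL SW 1 or SP-hold FW 2, FDR up to 0.0673), sdha (without SPLL FW 2, SPLL SW 1 or SP-hold SW 1 or 3, FDR up to 0.0651), JUP (without SPLL FW 1 or 2, SP-hold FW 1, 2, 3 or 4 or SP-hold SW 1, 2 or 3, FDR up to 0.0875) and Fkbp5 (without SPLL SW 1 or 4 or SP-hold FW 2, FDR up to 0.06).

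**Figure D4:**
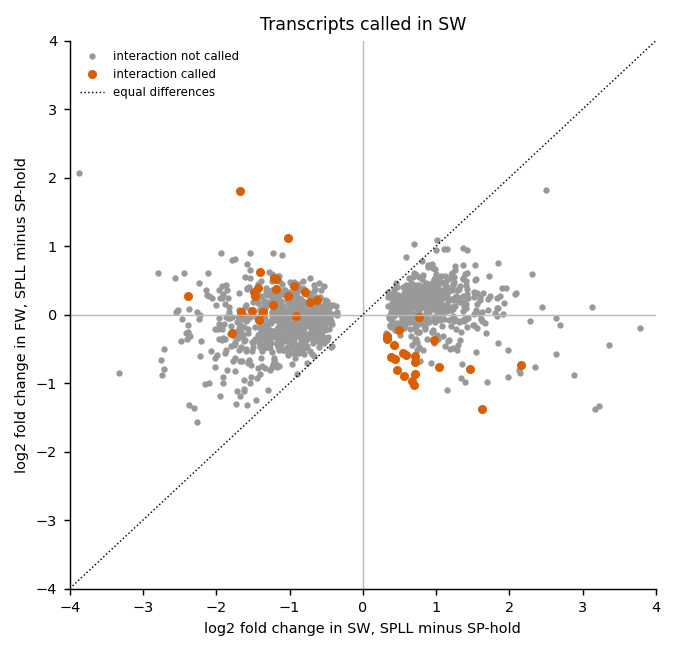
Log2 fold change of SPLL against SP-hold in freshwater (vertical) and in seawater (horizontal) for the 1329 of 1411 transcripts called in SW that lie within 4 on both axes. Orange points passed the interaction test at an FDR of 0.05, and the dotted line marks equal differences. Of the 1411 transcripts, which were chosen for their difference in SW, 66 passed the interaction test.

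Fold changes moved with transcript length. Called transcripts that were higher in SPLL SW had a median length of 1959 bases and those lower 4202.5 bases, against 3228 bases for all tested. The median log2 fold change was 0.56 below 500 bases and -0.20 at 8000 bases or more. Of transcripts below 500 bases 14 were higher and 0 lower, while at 8000 bases or more 22 were higher and 98 lower. The FW contrast had the same order, with medians of 0.34 and -0.34 in these classes. The slope of log2 CPM on each doubling of length was -0.02, 0.03, -0.38 and 0.03 in SPLL SW, against 0.21, 0.10 and 0.16 in SP-hold SW, and the groups did not overlap. The chromatin list, lower in SPLL SW, holds long transcripts (median 6211.5 bases), and the oxidative phosphorylation list, higher in SPLL SW, holds short ones (717 bases). Not every list follows this order. Neuron markers and the circadian clock, with negative medians of fold change, had median lengths of 2053 and 3015 bases. With a trend on length removed for each library, 710 transcripts were higher and 577 lower. The chromatin list then had 3 higher and 17 lower and the mRNA decay list 1 higher and 15 lower. With the effective length of each transcript as an offset instead, 130 transcripts were higher and 183 lower, of which the chromatin list had 1 higher and 9 lower and the mRNA decay list 1 higher and 11 lower. Of 105 called transcripts examined singly, 9 lost the call with the length trend removed and 26 with the effective length offset, and 0 changed sign. Those calls were made on the same libraries, so kept signs are not independent evidence. The cause of the length trend was not tested.

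**Figure D5:**
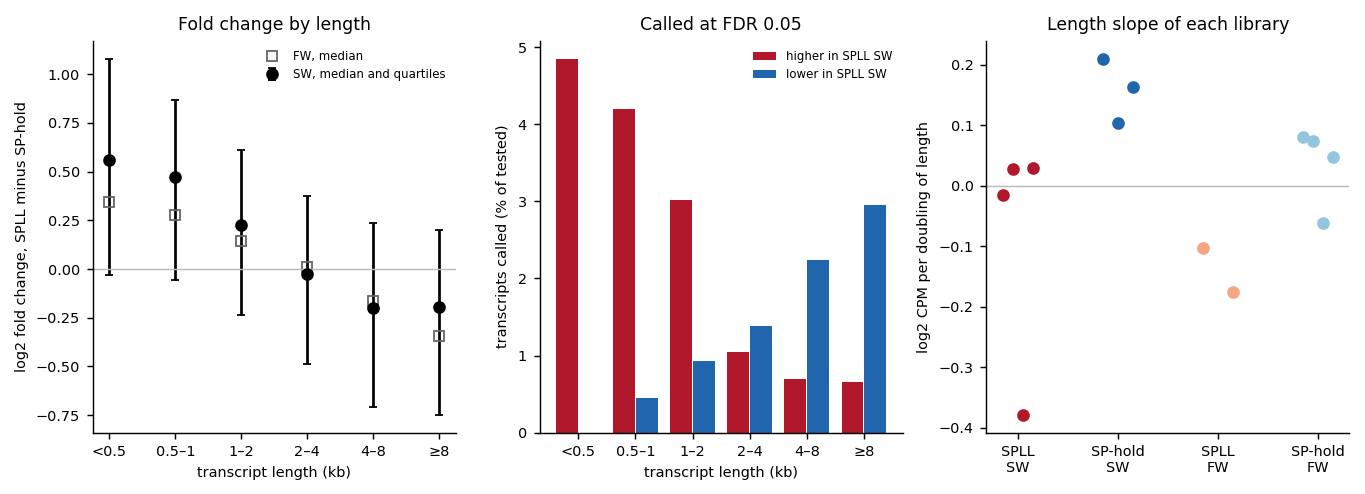
Left, median log2 fold change of SPLL against SP-hold by transcript length, with quartiles for seawater. Middle, percent of tested transcripts called in each direction. Right, slope of log2 CPM on length in each library (points). Transcripts below 500 bases have a median of 0.56 and those of 8000 bases or more -0.20 in SW.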

How the data were processed

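SV libraries were made with a stranded mRNA kit and sequenced with single-end reads. The authors trimmed the reads with cutadapt and quantified transcripts of Ssal_v3.1 with Salmon 1.1.0, corrected for GC bias. The deposited files give, per library, estimated counts (expected counts, not whole numbers) and TPM for each transcript, and replicates were not pooled. Groups came from the sample titles.

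The estimated counts were first rounded. A median of 0.77 CPM or more over the 13 libraries was required, and the transcripts that passed were tested with the quasi-likelihood test of edgeR 4.0.16 (R 4.3.3), with TMM factors, 4 group means and no block. FDR is the Benjamini-Hochberg adjusted p over all tested transcripts, and transcripts at an FDR under 0.05 were called. Standard errors (SE) were obtained from the fold change and the F statistic. SPLL FW, with 2 libraries, is assumed to vary like the other groups, and so is a lone library where one was left out. List sums of TPM were compared by exact permutation tests. Replicates differed by more than sampling noise, so none was merged. On simulated data the test called 1 of 46183 unchanged transcripts. It called 1 of 50 at a true log2 fold change of -1 and 1 of 50 at 1. At -2 and 2 it called 16 and 17 of 50. The simulation held no trend on length and no library that stands apart. It changed only 50 transcripts at each fold change, fewer in all than the 1411 called in the data. A smaller share of changed transcripts makes the FDR cut stricter, so these rates do not carry over to the reported calls.

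Names, matches and positions came from the study's supplementary tables, and symbols in zebrafish or mouse style are matches. For 19 transcripts without a name there, the symbol of an overlapping RefSeq gene was used (reciprocal overlap of at least 80%). The study's supplementary tables also hold its group tests, whose values were not used. No sequences are shown. The named transcripts are those with the lowest p in each direction (10 with a name), those with the largest difference (5 up and 5 down, averaging 5 CPM or more in SW, without overlap), up to 4 of each list, genes named by the study and 2 unnamed identifiers in each direction. Not all are printed, and a withheld item is not reported here. The members and lists were chosen with earlier results of these data known. Alternatives were RLE and upper quartile factors, DESeq2 1.42.0, limma-voom (limma 3.58.1) with quality weights, other count filters, the SW libraries alone, a replicate block, length offsets and each library left out.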

Additional observations from a re-analysis of the deposited data

Results flagged for a closer look

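In groups of 4 libraries, a library was taken to stand apart when its gap to the nearest other exceeded Dixon's 95% critical value, which chance alone passes in about 1 of 20 groups. This held in 20 of 336 groups examined (5.95%). SPLL SW replicate 3 was the library apart in 7 of the 20. It was lowest of its group in the number of transcripts with reads (54154) and for TFB2M (8.07 CPM), and highest for ATP5I (43.9 CPM), Dio3a2 (6.94 CPM), SC61G (162.5 CPM), fabp7b (518 CPM) and mak16 (23.3 CPM). SPLL SW replicate 1 was lowest for RTN1, with 82.5 CPM, and for gse1b, with 9.87 CPM. SP-hold FW replicate 1 was apart for EP300 (24.3 CPM), ZC3H4 (18.7 CPM), ubap2b (24.4 CPM), prvt (3117 CPM), rgrb (37.98 CPM) and JUP (6.52 CPM), and replicate 3 for RAB14 (64.9 CPM). SP-hold FW replicate 4 was lowest for Dio3a2 (0.792 CPM) and for the summed TPM of splicing and RNA-binding (1.12%), cytosolic chaperones (0.817%) and ion and water transport (0.143%).

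For 16 named transcripts the photoperiod contrast differed between SW and FW by the interaction test. The interaction, on the log2 scale, was -4.002 for Fkbp5, -1.51 for KMT2E, -1.71 for ZC3H4 on chromosome 9, -8.28 for meis2b, -1.57 for npnta, -1.13 for plak, -1.40 for sema6d, -0.89 for spata2, -1.34 for zswim8 and -1.81 for JUP. It was 1.35 for sdha, 0.80 for zgc:153345, 1.08 for tardbpb and 1.65 for hnrnpa1a. For TFB2M (11.73) and ndst1b (11.03) the fitted value rests on SP-hold SW libraries at 0 and gives no size. With 1 library left out, the interaction was called in all 13 fits for plak, tardbpb, hnrnpa1a, TFB2M and ndst1b. It was called in 10 of 13 for Fkbp5 and zswim8, 9 for sdha, 5 for KMT2E, sema6d and meis2b, 4 for npnta, spata2, JUP and ZC3H4 and 1 for zgc:153345 (FDR up to 0.124).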

How the results depend on the processing

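The call count in SW (1411) was 197 with no filter on low counts, 2334 at a median of at least 5 CPM, 109 with the 7 SW libraries alone, 313 with an effective length offset, 5483 in DESeq2 and 2657 in limma-voom with quality weights. Leaving out 1 library gave 138 to 1341 in SW, 34 to 274 in FW (42) and 62 to 299 for the interaction (105). In FW the count was 15 with no filter, 27 at 5 CPM, 1505 in DESeq2, 127 in limma-voom and 100 with the length trend removed and SPLL SW replicate 3 left out. The interaction count was 44 with no filter, 67 with effective length, 2092 in DESeq2, 505 in limma-voom and 334 with the length trend removed and replicate 3 left out. That double setting was chosen after seeing the data, as were all settings for FW and the interaction other than DESeq2, the block and single libraries. RLE and upper quartile factors gave 600 higher and 750 lower, and 760 higher and 712 lower, in SW. With the replicate number as a block 157 transcripts were called in SW, 2 in FW and 3 for the interaction. The labels do not say whether libraries with the same number are paired. Between the SW groups, deviations correlated at -0.04 to -0.03 within the 3 same-numbered pairs and -0.06 to 0.06 in the 9 others. SP-hold FW 1 correlated at 0.12 with SP-hold SW 1 and at -0.11 with SP-hold SW 2. So few pairs cannot decide whether the numbers pair libraries. All 1411 kept their sign in each of these fits in which they were tested. The named transcripts that were called kept their sign as well. These fits reuse most or all of the libraries behind the calls, so kept signs are not independent evidence. Of 105 such transcripts, 83 lost the call with the 7 SW libraries alone and 56 with the replicate block. Signs turned only for transcripts that were not called. Dio3a2 (0.33) was at -0.14 with the length trend removed, -0.32 with that and without SPLL SW replicate 3, -0.013 in limma-voom, and between -0.056 and 0.48 when 1 library was left out (negative without SPLL SW replicate 3). The epd transcript ENSSSAT00000133331 (0.06) was at -0.035 with the replicate block, -0.27 with the length trend removed, -0.35 with that and without SPLL SW replicate 3, and between -0.21 and 0.53 when 1 library was left out (negative without SPLL SW replicate 3 or 4 or SP-hold SW replicate 2 or 3). The causes were not tested.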
